A study of Mus musculus with 72 samples.

Results

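Granulocytes carry preformed proteins in granules, and their genes are transcribed mainly in the marrow precursors that build those granules. Of the 16835 genes in the deposited matrix, 9 were followed here by gene symbol across all 72 libraries: MPO, ELANE, PRTN3, CTSG, MS4A3, CAMP, CD177, LCN2 and LTF. They were chosen because earlier work on the same values had shown that they differ by tissue, day and treatment arm. Differences of the 9 genes by tissue, day or arm are therefore given as values with a standard error (SE) and without a p-value of their own. Where members passing an adjusted p under 0.05 are counted, the count is a description and no support for the difference.

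Azurophil granules are packed first, at the promyelocyte stage, with myeloperoxidase and serine proteases. Specific granules follow in myelocytes and metamyelocytes with lactoferrin, lipocalin 2 and cathelicidin, and mature neutrophils largely stop transcribing both sets while still carrying the proteins. In adult mice most granulopoiesis takes place in bone marrow, the spleen holds a smaller share that can grow in tumor-bearing animals, and resting lymph nodes are not known as a site of it. LCN2 and LTF are also made by many epithelia.

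The mice were BALB/c animals bearing CT26, a colon carcinoma line of that strain. The single-agent arms were PD1 and CYTO, and Isotype served as the control here. CYTO was also joined with PD1 (PD1/CYTO), with TS (TS/CYTO) or with both (TS/PD1/CYTO); what CYTO and TS stand for, and age and sex, are not given in the sources used here. Tumor, spleen and tumor-draining lymph node were taken at day 23, and nodes alone at day 16, with 3 mice in each of 24 groups. The day 16 nodes carry other mouse numbers than the day 23 nodes. CYTO 12 labels both a day 16 node and a day 23 tumor, and whether this is 1 animal is unclear. All 18 mice with a day 23 node also gave a spleen, and 14 of them gave a tumor. Poly(A)-selected RNA was sequenced, and the deposited values are log2(TPM + 1), where TPM is a length-corrected share of the transcripts in a library. A value of 0.01 is the lowest in the matrix and marks a gene that was not detected; read depth is unknown.

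Some libraries stood apart. The day 16 node library of mouse PD1/CYTO 22 had a mean correlation of 0.960 with tumors against 0.729 with other nodes, and its CD79A, a B cell gene, was 0.37. CD79A was 4.13 in node TS/PD1/CYTO 34 and 5.32 in node PD1 16, both of day 16, against 8.33 to 9.54 in the other 33 nodes. Results on day 16 nodes that change without these 3 libraries are given with the change. All nodes were in batch 2 and all spleens in batch 4, so tissue and batch cannot be told apart. Of the tumors, 14 were RNAlater samples of batch 3 and 4 were fresh-frozen samples of batch 2. No library pair held identical values. In bulk tissue, fewer cells of a type and less RNA per cell cannot be told apart.

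The 9 genes lie on 7 chromosomes, and only 2 pairs share one. On mm10, PRTN3 (proteinase 3) lies at chr10:79874476-79883174 and ELANE (neutrophil elastase) starts 3072 bases after its end, at chr10:79886247-79888215, both on the plus strand. CFD, which encodes complement factor D and is made mostly by adipocytes, follows 2637 bases after ELANE. CAMP (cathelicidin, chr9:109847379-109849617, minus strand) and LTF (lactoferrin, chr9:111019271-111042767, plus strand) share chromosome 9. MPO is at chr11:87793581-87804413 on the plus strand. The other 4 are on the minus strand, with LCN2 at chr2:32384633-32388252, CD177 at chr7:24743983-24760311, CTSG at chr14:56099881-56102574 and MS4A3 at chr19:11629496-11640851.

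RefSeq promoter windows, 250 bases before to 50 bases after the start on GRCm38.p6, were available for all 9. The RefSeq starts are not always those of the gene positions above. The windows of PRTN3 and LCN2 lie inside the spans given there. They were searched on both strands for GAGGAAGT, bound by the myeloid factor PU.1, and TTGCNNAA, bound by C/EBP factors. The PU.1 letters occurred in 3 of the 9 windows, those of MPO, ELANE and PRTN3, and in 3.2% of 32851 windows of the same length. The C/EBP letters occurred in 3 of 9, those of MS4A3, LCN2 and LTF, and in 10.8% of all windows. TGTGGT (RUNX) occurred in 2 of 9 and 16.8% of all windows, and CAGTTA (MYB) in 1 of 9 and 10.1%. The windows of the 3 azurophil genes that share the PU.1 letters, and of the 2 genes that behaved differently from the rest in nodes, are shown 5′ to 3′ on the gene's strand, with the PU.1 or C/EBP match in capitals. A match describes the letters only.
MPO (chr11:87793534-87793833, plus strand): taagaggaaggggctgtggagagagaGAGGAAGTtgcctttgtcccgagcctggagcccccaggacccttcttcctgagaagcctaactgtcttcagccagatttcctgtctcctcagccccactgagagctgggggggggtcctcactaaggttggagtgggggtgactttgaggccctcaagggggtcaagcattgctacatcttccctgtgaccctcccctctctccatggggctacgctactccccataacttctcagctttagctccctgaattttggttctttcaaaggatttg
ELANE (chr10:79886062-79886361, plus strand): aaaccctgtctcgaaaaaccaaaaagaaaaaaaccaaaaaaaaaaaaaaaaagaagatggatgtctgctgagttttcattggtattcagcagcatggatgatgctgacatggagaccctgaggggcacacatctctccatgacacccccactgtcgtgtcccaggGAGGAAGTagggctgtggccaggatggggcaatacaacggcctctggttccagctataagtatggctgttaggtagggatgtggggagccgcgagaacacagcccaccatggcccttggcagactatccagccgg
PRTN3 (chr10:79879417-79879716, plus strand): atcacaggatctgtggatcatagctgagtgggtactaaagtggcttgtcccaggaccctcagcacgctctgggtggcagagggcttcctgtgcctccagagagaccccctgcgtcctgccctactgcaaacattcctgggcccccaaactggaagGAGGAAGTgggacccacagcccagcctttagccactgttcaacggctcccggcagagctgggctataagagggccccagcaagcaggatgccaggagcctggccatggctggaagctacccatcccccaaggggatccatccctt
LCN2 (chr2:32387690-32387989, minus strand): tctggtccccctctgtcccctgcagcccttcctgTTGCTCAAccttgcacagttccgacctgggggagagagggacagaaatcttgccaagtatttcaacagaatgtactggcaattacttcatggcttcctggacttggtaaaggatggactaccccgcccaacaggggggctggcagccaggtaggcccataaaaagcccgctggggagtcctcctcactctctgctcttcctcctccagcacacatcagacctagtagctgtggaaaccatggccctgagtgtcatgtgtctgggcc
LTF (chr9:111019042-111019341, plus strand): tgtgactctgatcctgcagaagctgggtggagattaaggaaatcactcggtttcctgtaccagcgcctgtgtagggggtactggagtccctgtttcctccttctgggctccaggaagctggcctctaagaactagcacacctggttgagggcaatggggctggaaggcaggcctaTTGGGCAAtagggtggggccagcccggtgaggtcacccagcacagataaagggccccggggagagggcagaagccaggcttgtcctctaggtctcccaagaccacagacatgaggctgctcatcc

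The first comparison was between tissues at day 23. Spleen was the only tissue in which all 9 genes were detected in all 18 libraries. CAMP, an antimicrobial peptide precursor, was the highest in spleen, with a lowest value of 5.26, a median of 6.30 and a highest of 7.49. LCN2, which binds bacterial siderophores, followed at 4.56, 5.99 and 6.80. LTF, which binds iron, ran from 3.20 through 4.99 to 5.92.
The azurophil proteases and peroxidase were at similar levels: PRTN3 ran from 3.50 through 4.98 to 6.14, MPO from 2.98 through 4.53 to 5.52, and ELANE from 2.86 through 4.43 to 5.37. CTSG (cathepsin G) ran from 2.56 through 3.81 to 5.03. MS4A3, a membrane protein of granulocyte-monocyte progenitors, ran from 1.97 through 3.00 to 4.40, and CD177, a neutrophil surface protein, was lowest at 0.81, 2.44 and 3.03. The ranges of neighbours in this order overlapped in each case.

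Tumors held almost none of the program. MPO, ELANE, PRTN3, MS4A3, CAMP and CD177 were undetected in all 18 tumors. LCN2 was detected in all 18, from 1.85 through a median of 5.19 to 6.05, and CTSG in 17, from 0.01 through 1.73 to 2.59. LTF was detected in 7 and reached 1.45. The mature neutrophil list was nevertheless present in tumors, with a summed level of its 12 listed genes of 109 to 527 TPM. The granulopoiesis factors CEBPE and MYB and the specific granule gene OLFM4 were at 0.01 in every tumor.

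**Figure D1:**
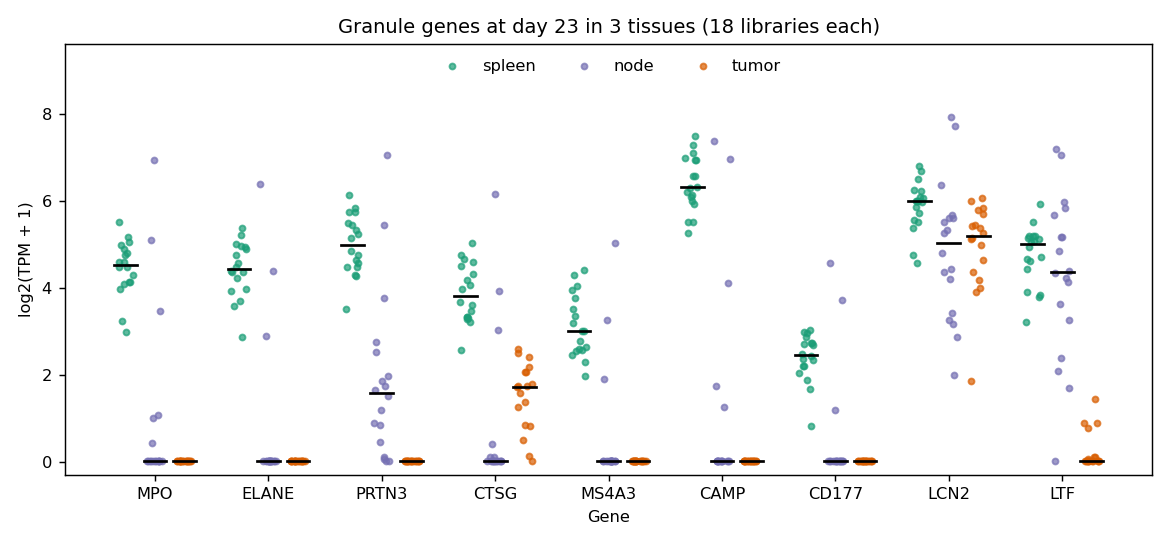
Level of each gene, in log2(TPM + 1), in the 18 spleens, 18 nodes and 18 tumors of day 23; each point is a library and each black bar the median. Spleens hold all 9 genes, tumors only CTSG, LCN2 and, in 7 libraries, LTF, and in nodes 6 of the genes have their median at 0.01.

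In limma's fit of all 54 day 23 libraries, CAMP was 5.20 ± 0.20 (SE) higher in spleen than in node, ELANE 3.65 ± 0.18, MPO 3.44 ± 0.18, PRTN3 3.11 ± 0.22 and CTSG 3.10 ± 0.20 on the log2(TPM + 1) scale. MS4A3 was 2.55 ± 0.17 and CD177 1.86 ± 0.17 higher. LCN2 was 1.02 ± 0.30 and LTF 0.47 ± 0.32 higher, the smallest differences among the 9. The median difference of all 12761 genes tested was -0.92, so each difference is larger relative to that shift. At an adjusted p under 0.05, 8 of the 9 were called higher in spleen, against 9.1% of all genes; the genes were chosen on this contrast and nothing is read from the count. Against nodes, tumors had 4.03 ± 0.32 less LTF, 1.87 ± 0.22 less PRTN3 and 0.75 ± 0.20 more CTSG. LCN2 differed by 0.08 ± 0.30. Of the 9 genes 7 were called lower in tumors, against 57.9% of all genes. ELANE, MS4A3 and CD177 were undetected in every tumor and detected in 3 of 18 nodes, all of the PD1 arm. Their lower calls therefore rest on those PD1 nodes. MPO and CAMP were undetected in 12 and 13 of the 18 nodes. Nothing is read from this count either.

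The second comparison was between arms and days in the nodes, where the 9 genes separated into 2 patterns. MPO, ELANE, CTSG, MS4A3, CAMP and CD177 were undetected or nearly so in most nodes and high in a few, whereas LCN2 was detected in all 36 nodes, LTF in 33 and PRTN3 in 32. At day 23 the nodes with the high pattern were those of the 3 PD1 mice. At day 16 they were those of the 3 TS/CYTO mice. Among the others 1 Isotype node was above the rest, and lower than these 3 for each of those genes except ELANE.

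**Figure D2:**
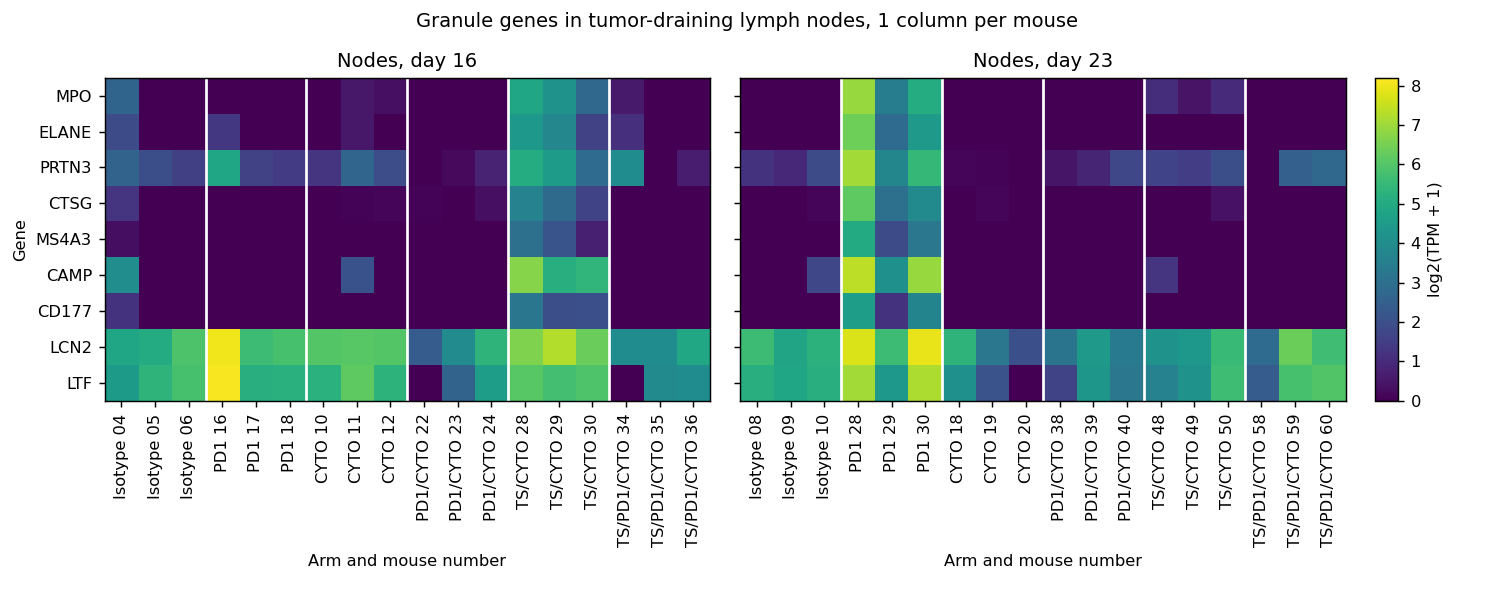
Level of the 9 genes (rows) in the 36 node libraries (columns, by day, arm and mouse number), coloured by log2(TPM + 1) from 0 to 8.2. The 3 PD1 nodes of day 23, the 3 TS/CYTO nodes of day 16 and Isotype 04 hold all 9 genes, faintly for MS4A3 in Isotype 04, and LCN2 and LTF are bright in most other nodes too.

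In day 23 nodes MPO was 6.93, 3.47 and 5.09 in PD1 mice 28, 29 and 30. It was 0.01 in all 3 Isotype, all 3 CYTO, all 3 PD1/CYTO and all 3 TS/PD1/CYTO nodes, and 1.08, 0.43 and 1.00 in TS/CYTO nodes 48, 49 and 50. The PD1 nodes did not overlap with any other arm for MPO, a gene chosen on these values. The share of all genes that separate these nodes likewise was not counted, so nothing is read from it.
ELANE was 6.38, 2.88 and 4.39 in the PD1 nodes and 0.01 in the other 15. CTSG was 6.15, 3.03 and 3.93 in PD1, with a highest value of 0.40 elsewhere, and MS4A3 was 5.02, 1.90 and 3.26 in PD1 and 0.01 in the other 15. For all 3 the PD1 nodes stood clear of every other node of that day, again without a count over all genes.
CAMP was 7.37, 4.11 and 6.95 in the PD1 nodes, 1.73 in Isotype 10, 1.25 in TS/CYTO 48 and 0.01 elsewhere. CD177 was 4.56, 1.20 and 3.71 in PD1 and 0.01 elsewhere. Mouse 29 was the lowest of the 3 PD1 mice for every one of the 9 genes.

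PRTN3, LCN2 and LTF had a higher base level in the other arms. PRTN3 was 7.06, 3.76 and 5.45 in PD1 nodes, 1.20, 0.90 and 1.86 in Isotype, 0.11, 0.07 and 0.01 in CYTO, and at most 2.76 in the rest. LCN2 was 7.72, 5.61 and 7.92 in PD1 and 5.61, 4.79 and 5.26 in Isotype, so that PD1 29 matched Isotype 08. LTF was 7.05, 4.38 and 7.19 in PD1 and 5.17, 4.84 and 5.16 in Isotype, where PD1 29 lay below all 3.
The lowest LCN2 and LTF values of day 23 nodes were in CYTO 20, at 2.00 and 0.01. In CYTO nodes LTF was 4.12, 2.09 and 0.01.

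Relative to Isotype, the PD1 arm at day 23 was higher by 5.56 ± 0.65 (SE pooled over all 6 arms, 3 mice per arm) for CAMP. It was higher by 5.15 ± 0.53 for MPO, 4.54 ± 0.53 for ELANE and 4.33 ± 0.49 for CTSG. The differences were 3.38 ± 0.47 for MS4A3, 3.15 ± 0.53 for CD177 and 4.10 ± 0.73 for PRTN3. LCN2 and LTF differed by 1.86 ± 0.95 and 1.15 ± 1.18, and the median gene by -0.12. No fold is given for genes undetected in every Isotype node. Of 12203 genes 6 were called higher at a limma adjusted p under 0.05, which is 0.0492%, and none lower; 1208 had an unadjusted p under 0.05. All 6 were among the 9, namely MPO, CTSG, ELANE, CAMP, MS4A3 and CD177; this contrast chose them, so the count is a description. Leaving out mouse 28 lowered MPO to 4.27 and CAMP to 4.95, and leaving out mouse 29 raised them to 6.00 and 6.58. ELANE, MS4A3 and CD177 were detected in these 3 nodes alone, so they passed the filter through the arm where they are high and were not tested once a PD1 mouse was left out. Over the genes then tested, the number called was 3 without mouse 28, 23 without mouse 29 and 3 without mouse 30, and 0 under a stricter filter that keeps only genes whose mean is above the median gene and leaves only LCN2 and LTF of the 9 in nodes.

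The excess was present in PD1 alone and in no other arm that contains PD1. Between PD1/CYTO and CYTO neither MPO nor ELANE, MS4A3 or CD177 differed at day 23, all being at 0.01 in the 6 nodes. The interaction of PD1 with CYTO was -5.56 ± 0.92 for CAMP, -5.15 ± 0.75 for MPO, -4.54 ± 0.75 for ELANE and -4.36 ± 0.69 for CTSG. It was -1.72 ± 1.35 for LCN2 and -0.13 ± 1.66 for LTF. CAMP, MPO and ELANE were at 0.01 in every CYTO and PD1/CYTO node. Their interaction is therefore PD1 minus Isotype with its sign reversed and adds no separate result. Across all genes 2 were called, 1 in each direction, or 0.00819% each and 0.0164% together; MPO was the one called lower. Averaged over its 3 pairs of arms, the PD1 effect was 1.05 ± 0.30 for CD177 to 1.72 ± 0.38 for CAMP among the 6 genes, with none of the 9 called and 2 genes (0.0164%) called in all. The CYTO effect, which takes in PD1/CYTO minus PD1, was -3.35 ± 0.46 for CAMP, -3.05 ± 0.83 for LTF, -2.83 ± 0.52 for PRTN3, -2.58 ± 0.38 for MPO and -2.55 ± 0.67 for LCN2. CAMP, MPO, CTSG and ELANE were among the 5 genes called lower (0.041%), and 3 others were called higher (0.0246%), which makes 0.0656% in all. ELANE passed the filter through the PD1 nodes only, and the CYTO values of the 6 genes restate their level in PD1. These contrasts share the PD1 and Isotype nodes and are not independent. The TS effect at day 23 was between 0.00 ± 0.33 and 0.41 ± 0.38 for the 6 genes, and 2.03 ± 0.83 for LTF; 1 gene, not among the 9, was called lower (0.00819%).

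At day 16 MPO was 4.86, 4.19 and 2.77 in TS/CYTO nodes 28, 29 and 30, and 2.64 in Isotype 04. It was 0.54 and 0.33 in CYTO 11 and 12, 0.58 in TS/PD1/CYTO 34, and 0.01 in the other 11 nodes. All 3 PD1 nodes of day 16 were at 0.01.
CAMP was 6.71, 5.15 and 5.39 in TS/CYTO, 4.02 in Isotype 04, 2.06 in CYTO 11 and 0.01 in the other 13. ELANE was 4.38, 3.78 and 1.63 in TS/CYTO and 1.90 in Isotype 04, so TS/CYTO 30 lay within the range of another arm. CTSG was 3.62, 2.82 and 1.67, MS4A3 3.03, 2.14 and 0.73, and CD177 3.21, 1.96 and 2.01 in TS/CYTO, with 1.22, 0.29 and 1.21 in Isotype 04.
The other 2 Isotype nodes had 0.01 for all 6 genes. A node of the control arm thus showed the pattern. It was below every TS/CYTO node for MPO, CTSG, MS4A3, CAMP and CD177, but not for ELANE.

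Relative to CYTO, TS/CYTO at day 16 was higher by 5.06 ± 0.85 for CAMP, 3.65 ± 0.60 for MPO, 3.08 ± 0.66 for ELANE, 2.63 ± 0.40 for CTSG, 2.38 ± 0.33 for CD177 and 1.96 ± 0.38 for MS4A3. PRTN3 differed by 2.21 ± 1.01, LCN2 by 0.72 ± 0.68 and LTF by 0.35 ± 1.16. No gene of 12480 was called by limma in this contrast (0%) and 58 had an unadjusted p under 0.05. The number called was 5 without TS/CYTO 30, 2 without TS/CYTO 29, 4 without Isotype 04 and 1 without the 3 nodes low in CD79A. The TS effect over both pairs of arms was 2.53 ± 0.60 for CAMP and 1.92 ± 0.43 for MPO, and the PD1 effect -2.59 ± 0.49 and -1.63 ± 0.35. All 9 genes were positive for TS and negative for PD1, where the median gene was at -0.07 and -0.11. The share of all genes with each sign was not counted. No gene was called in either (0%), with 139 and 905 at an unadjusted p under 0.05. Both effects draw on the TS/CYTO nodes. CAMP was at 0.01 in every PD1/CYTO and TS/PD1/CYTO node of day 16, so its TS effect restates TS/CYTO minus CYTO. Without the 3 nodes low in CD79A, 4 genes were called for TS and 1 for PD1.

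**Figure D3:**
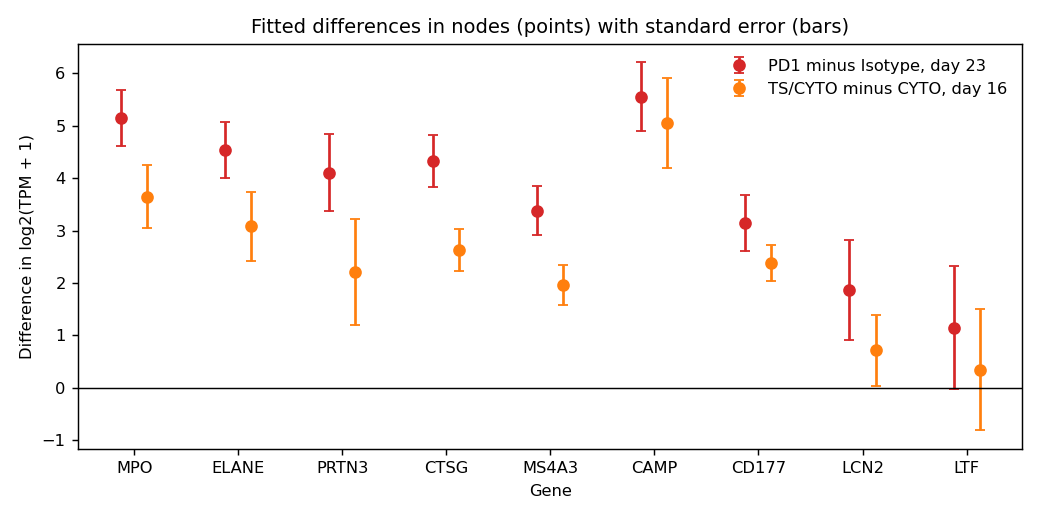
Fitted difference in log2(TPM + 1), with its standard error as a bar, of PD1 minus Isotype nodes at day 23 and TS/CYTO minus CYTO nodes at day 16 for each of the 9 genes (3 mice per arm). In both, CAMP and MPO have high values, and LCN2 and LTF have the lowest.

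TS/CYTO nodes no longer showed the pattern at day 23, where the highest value of MPO was 1.08 and ELANE was 0.01 in all 3; the day 16 and day 23 nodes came from different mice. The PD1 effect differed between the days by 4.30 ± 0.65 for CAMP, 3.08 ± 0.48 for MPO, 2.60 ± 0.51 for ELANE, 2.40 ± 0.38 for CTSG, 1.98 ± 0.38 for CD177 and 1.81 ± 0.37 for MS4A3. Over all 12596 genes 7 were called higher (0.0556%), 5 of them among the 9, and the other 2 were S100A8 and S100A9, the calprotectin subunits of neutrophils, at 3.77 ± 0.71 and 3.36 ± 0.66. The mean change from day 16 to day 23 over all arms was within 0.60 for each of the 9, with CAMP at -0.11 ± 0.32 and LCN2 at -0.58 ± 0.34, and no gene was called (0%), with 2227 at an unadjusted p under 0.05 and 255 called without the 3 nodes low in CD79A.

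The relative levels of the genes were compared within libraries, as log2 ratios of TPM to MPO. ELANE relative to MPO had a median of -0.11 over 18 spleens, -0.66 over the PD1 day 23 nodes and -0.50 over the TS/CYTO day 16 nodes. PRTN3 relative to MPO had medians of 0.56, 0.32 and 0.24. CAMP relative to MPO had medians of 1.98, 0.69 and 1.89, and CTSG of -0.63, -0.79 and -1.42. LCN2 relative to MPO had medians of 1.45, 2.25 and 3.14 and LTF of 0.33, 0.98 and 1.60, with higher medians in both sets of nodes than in spleens.
In PD1 mice 28 and 30 MPO was higher in the node than in the spleen, and in mouse 29 it was lower. The genes in the matrix summed to 501438 to 553617 TPM in the spleens of these mice and to 778108 to 823210 TPM in their nodes. The median difference of all genes between spleen and node was -0.92, and tissue and batch cannot be told apart. MPO was 6.93 in the node and 4.74 in the spleen of mouse 28, 3.47 and 3.97 in mouse 29, and 5.09 and 4.14 in mouse 30. The spleens of these 3 mice lay within the range of the other 15 spleens, at 2.98 to 5.52.

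Other genes of the same pathway were read from fixed lists. Of the 11 mature neutrophil genes tested at day 23, 9 were higher in PD1 than in Isotype nodes, with a median difference of 0.84, and none was called. S100A8 was 10.60, 7.45 and 9.98 in PD1 nodes and 5.07, 3.30 and 5.64 in Isotype, a difference of 4.67 ± 0.77, and S100A9 differed by 4.33 ± 0.75 (limma adjusted p = 0.0589 and 0.0806). CEBPE, a transcription factor of specific granule formation, was 2.58, 0.01 and 1.32 in the PD1 nodes and 0.01 in all other day 23 nodes. MMP8, the neutrophil collagenase, was 3.47, 0.34 and 2.97 in PD1 nodes. OLFM4 was 1.92, 0.01 and 1.38 and PRSS57, an azurophil serine protease, 1.43, 0.01 and 0.18. PD1 28, which had the highest MPO, also had the highest CEBPE, MMP8, OLFM4 and PRSS57 of the day.
BPI, another azurophil protein, was at 0.01 in every node. Of the 11 granulopoiesis regulators tested 5 were positive and none called (median -0.01), of 6 other azurophil genes 2 were positive and none called (median -0.03), and of 10 other specific and gelatinase granule genes 5 were positive and none called (median 0.05).

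Marker lists of other cells were summed in the same nodes. The 12 listed mature neutrophil genes summed to 903 to 4003 TPM in PD1 and 482 to 607 TPM in Isotype nodes at day 23; FPR1 and TREM1 were at 0.01 in all Isotype nodes and none in all PD1 nodes. At day 16 the sums were 1034 to 2240 TPM in TS/CYTO and 509 to 598 TPM in CYTO. The 7 monocyte genes summed to 296 to 312 TPM in PD1 and 293 to 327 TPM in Isotype, and the 8 stem and progenitor genes to 153 to 196 and 185 to 213 TPM. The 11 erythroid genes summed to 23.4 to 40.8 TPM in PD1 and 32.6 to 36.4 TPM in Isotype, with KLF1 and 4 other members at 0.01 in both. The 7 mast cell and eosinophil genes summed to 13.7 to 54.7 and 17.5 to 28.5 TPM, with EPX and MS4A2 at 0.01. The summed mature neutrophil level was higher in the arms with high granule genes, but over 36 nodes the median r of 10 such genes with the azurophil mean was 0.161, and S100A9 had the highest, 0.843. Summed monocyte, progenitor, erythroid, and mast cell and eosinophil levels overlapped between PD1 and Isotype. At day 16 the mast cell and eosinophil genes summed to 42.5 to 88.5 TPM in TS/CYTO and 24.2 to 31.5 TPM in CYTO, without overlap. All 5 of them that were tested were positive and none was called (median difference 0.39); MS4A2 was at 0.01 in both arms, and EPX was above 0.01 in TS/CYTO 28 alone of these nodes, at 1.5. The part of neutrophils, mast cells or eosinophils in the granule gene values was not tested.

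LCN2 and LTF followed a different set of genes in nodes. Over 36 nodes the 6 genes MPO, ELANE, CTSG, MS4A3, CAMP and CD177 had pairwise Pearson correlations of 0.89 to 0.99, with a median of 0.96. Their correlations with LCN2 and LTF were 0.39 to 0.59, with a median of 0.48, while LCN2 and LTF correlated at 0.91 with each other. In 18 spleens the same pairs had medians of 0.864 and 0.857, with ranges of 0.312 to 0.976 and 0.585 to 0.929. There CD177 correlated at 0.312 with MS4A3 and 0.396 with CTSG, but at 0.865 with LCN2 and 0.906 with LTF. These values are descriptions over libraries that share batch and tissue, and 1 or 2 high arms dominate the node values.
The gene most like LTF over the 36 nodes, among 11790 genes, was EPCAM (epithelial cell adhesion molecule) at r = 0.86, followed by MAPK13, CLDN7, PRLR and CRB3. For LCN2 they were MAPK13 at 0.86, CLDN7, CRB3, COL9A2, PROM1 and EPCAM at 0.77. The 7 epithelial genes had a median r of 0.76 with LTF and 0.70 with LCN2, and -0.00 with the mean of MPO, ELANE, PRTN3, CTSG and MS4A3.

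**Figure D4:**
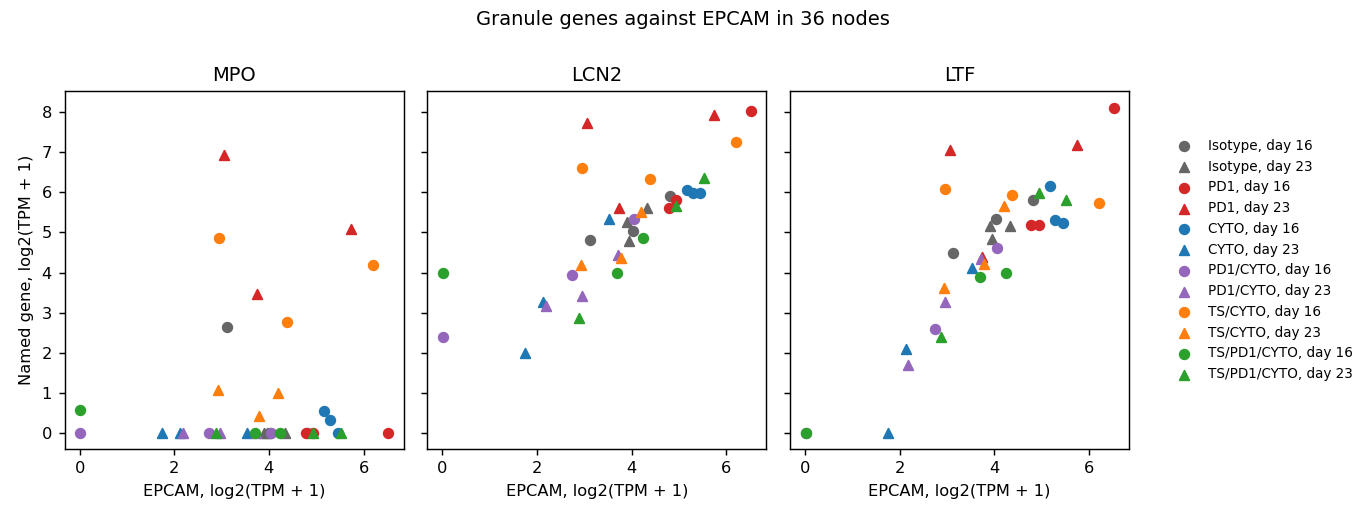
MPO, LCN2 and LTF against EPCAM, all in log2(TPM + 1), in the 36 node libraries, coloured by arm and shaped by day. LCN2 and LTF are higher where EPCAM is higher (r = 0.77 and 0.86), MPO does not (r = 0.09), and PD1 28 has LTF at 7.05 at an EPCAM of 3.06.

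Without the 3 nodes low in CD79A the correlation of LTF with EPCAM was 0.75 over 33 nodes, and that of LCN2 0.74. Node PD1 16 of day 16 had the highest LTF and LCN2 of all libraries, 8.11 and 8.02, with MPO at 0.01, EPCAM at 6.52 and a summed epithelial level of 1254 TPM. Node CYTO 20 of day 23, with LTF at 0.01, had EPCAM at 1.75 and 2.96 TPM. PD1 28 had LTF at 7.05 with only 9.16 TPM of epithelial genes and the highest S100A8, 10.60. Epithelial genes summed to 9.16 to 661 TPM in PD1 and 118 to 198 TPM in Isotype nodes of day 23; their part in the LCN2 and LTF values was not tested. EPCAM correlated with LTF at 0.12 and with LCN2 at -0.10 over spleens, where epithelial genes summed to at most 3.19 TPM.

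PRTN3 was intermediate. It correlated with MPO at 0.81 over 36 nodes and at 0.90 without the 3 nodes low in CD79A, yet it was detected in 32 nodes. Its highest value in nodes with MPO at 0.01 was 4.83, in PD1 16, where ELANE was 1.34. In TS/PD1/CYTO 34, PRTN3 was 3.99, ELANE 1.10 and MPO 0.58. CFD, the neighbour of ELANE, was 13.91 and 12.96 in these 2 nodes, and ADIPOQ, an adipocyte gene, 10.64 and 10.34, the highest 2 values of ADIPOQ in any node. Over 36 nodes PRTN3 correlated with CFD at 0.38 and with ADIPOQ at 0.34. Without the 3 nodes low in CD79A these values were 0.21 and 0.16. ELANE correlated with CFD at -0.01 over 36 nodes. The part of fat tissue or of neighbouring transcripts in PRTN3 was not tested.

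For the mean of the azurophil genes with MS4A3, the 6 most similar genes over nodes were S100A9 at r = 0.843, S100A8 at 0.825, PRG2, LTB4R, MMP9 and TMEM40. PRG2, the eosinophil major basic protein, was 6.25 in TS/CYTO 28, the highest MPO node of day 16, and 4.11 and 2.60 in PD1 30 and 28. Over 18 spleens the most similar genes were S100A8 at 0.899, S100A9 at 0.892, CEBPE at 0.835, OLFM4, ORM1 and RBM8A. For CAMP, CD177, LCN2 and LTF they were CEBPE at 0.938, OLFM4 at 0.888, S100A8, S100A9, ANXA1 and ADGRG3.

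In spleens the arms overlapped for MPO. MPO was 4.80, 4.58 and 4.90 in Isotype, 4.74, 3.97 and 4.14 in PD1, and 5.52, 4.99 and 4.12 in CYTO. It was 4.48, 4.58 and 2.98 in PD1/CYTO, 4.08, 4.48 and 5.06 in TS/CYTO and 4.29, 3.23 and 5.16 in TS/PD1/CYTO. The 3 Isotype mice were close together, and the lowest value of each treated arm was below all 3.
MS4A3 was 4.03, 3.51 and 4.28 in Isotype and 2.54, 2.58 and 1.97 in PD1/CYTO, without overlap. CTSG was 4.65, 4.17 and 4.74 in Isotype and 3.33, 3.60 and 2.56 in PD1/CYTO, also without overlap. PRTN3, ELANE and CAMP of PD1/CYTO lay below Isotype too. They were at most 4.74, 4.38 and 6.19, against at least 5.23, 4.48 and 6.56. The genes are not independent, and CTSG and MS4A3 correlated at 0.976 over the spleens. This pair of arms was not tested on its own. How many of all genes separate it in the same way was not counted, so nothing is read from the lack of overlap. CD177 was 2.19, 2.19 and 2.37 in Isotype and 2.69, 2.95 and 1.68 in PD1/CYTO, and these overlapped. The mouse with the largest tumor, TS/PD1/CYTO 59 at 2198 mm3, had the lowest CAMP, CD177, LCN2 and LTF of all spleens, at 5.26, 0.81, 4.56 and 3.20. The mouse with the smallest tumor, PD1/CYTO 40 at 29.18 mm3, had the lowest MPO, ELANE, PRTN3, CTSG and MS4A3, at 2.98, 2.86, 3.50, 2.56 and 1.97.

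**Figure D5:**
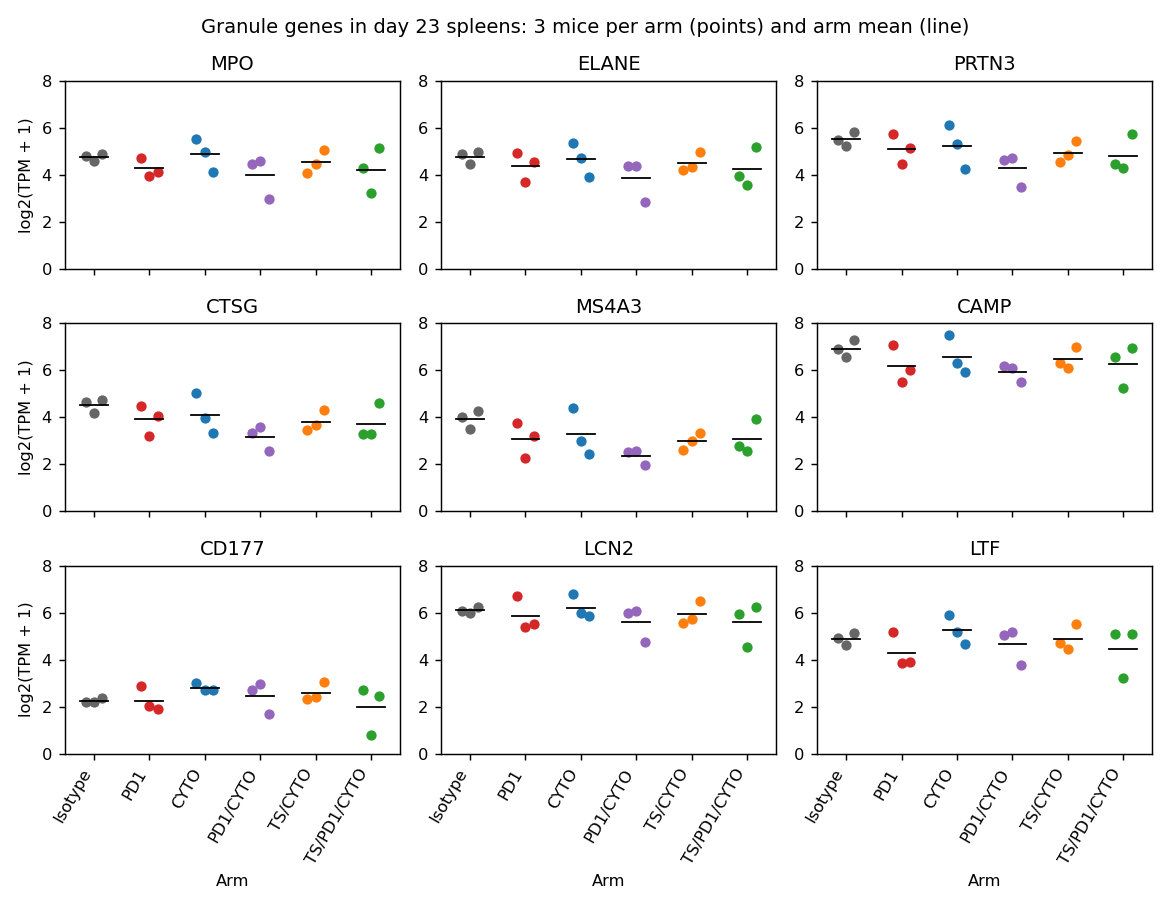
Level of the 9 genes in day 23 spleens by arm, in log2(TPM + 1); points are the 3 mice of an arm and lines the arm mean. All arms hold all 9 genes. ELANE, PRTN3, CTSG, MS4A3 and CAMP of PD1/CYTO lie below those of Isotype, a separation whose share over all genes was not counted. MPO, CD177, LCN2 and LTF of these arms meet or overlap.

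The PD1 effect in spleens was negative for all 9 genes, from -0.32 ± 0.25 for CD177 to -0.56 ± 0.28 for MS4A3, with a median of -0.52 against 0.15 for all 11184 genes. The CYTO effect was -0.69 ± 0.34 for MS4A3 and -0.58 ± 0.33 for CTSG, and 0.37 ± 0.31 for CD177, with the median gene at 0.25. The TS effect was from -0.32 ± 0.31 for CD177 to 0.22 ± 0.34 for MS4A3. No gene was called by limma in any of the 3 (0%), and 942, 2488 and 186 had an unadjusted p under 0.05.

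In tumors LCN2 was 4.17, 5.41 and 5.25 in Isotype, 5.37, 5.45 and 5.69 in PD1 and 3.90, 5.82 and 4.99 in CYTO. It was 1.85, 4.35 and 4.63 in PD1/CYTO, 5.99, 5.13 and 5.78 in TS/CYTO and 6.05, 3.99 and 5.12 in TS/PD1/CYTO. The arms overlapped, and the lowest value was a fresh-frozen tumor, PD1/CYTO 32.
CTSG was 1.75, 0.01 and 0.14 in Isotype and 2.49, 2.59 and 2.07 in TS/PD1/CYTO, without overlap. Isotype 01, at 1.75, and TS/PD1/CYTO 52, at 2.49, were fresh-frozen. The share of all genes that separate this pair of arms was not counted, so nothing is read from the lack of overlap. The 4 other arms ran from 0.49 to 2.41. The CYTO effect was 0.81 ± 0.32 for CTSG and -0.81 ± 0.43 for LCN2, and the TS effect 0.45 ± 0.32 and 0.93 ± 0.43; no gene of 10913 was called in these or in the PD1 effect (0%), with 98, 369 and 522 at an unadjusted p under 0.05. The TS effect on LCN2 was 0.25 without TS/PD1/CYTO 52, and that on CTSG 0.24 without CYTO 12, 0.27 without PD1/CYTO 39 and 0.68 without CYTO 18. The CYTO effect on LCN2 was -0.53 without PD1/CYTO 32.
CTSG is also known from mast cells. Over 18 tumors it correlated with the 4 mast cell and eosinophil genes detected in most of them at -0.04 to -0.03. Its most similar gene was TMSB15A at 0.735. These correlations pool all arms and both batches, and the part of mast cells in the CTSG values was not tested. LCN2 was most like NDNL2 at 0.871 and NFKBIZ at 0.855, a cofactor of NF-kappa-B.

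Tumor volume within arms was not used to choose the genes and was tested as a slope per doubling of volume, with arm and, in tumors, batch in the model. In tumors 13 genes of 10913 were called higher and 437 lower with volume, 4.12% in all. None of the 3 testable genes was among them. LCN2 had a slope of -0.49 ± 0.16 (limma adjusted p = 0.102), CTSG 0.03 ± 0.16 (adjusted p = 0.896) and LTF -0.12 ± 0.11 (adjusted p = 0.513), and the median slope of all genes was -0.11. LCN2 was -0.09 in the 14 RNAlater tumors alone and -0.18 without TS/PD1/CYTO 52.
Several lists of related genes had called members, all lower with volume. Of 12 mature neutrophil genes 4 were called, among them CLEC4E at -0.65 ± 0.12 and FPR2 at -0.61 ± 0.13 (limma adjusted p = 0.0191 and 0.024). Of 10 granulopoiesis regulators 4 were called, SPI1, which encodes PU.1, at -0.45 ± 0.09 and CSF3R, CXCL12 and CXCR4 (adjusted p = 0.0242 to 0.043). Of 9 other specific granule genes CYBB, HP and ITGAM were called, of 6 other azurophil genes SRGN and CTSC, the activator of the granule proteases, and of 5 mast cell and eosinophil genes 4, led by CMA1 at -1.35 ± 0.19 (adjusted p = 0.0141). Of 5 stem and progenitor genes CD48 was called, and of 7 monocyte genes none. The number called over all genes was 0 in the RNAlater tumors alone, 0 without PD1/CYTO 32, 0 without TS/PD1/CYTO 59 and 43 without PD1/CYTO 38, so the list counts depend on single tumors.

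In spleens and nodes none of the 9 genes, and no gene of all those tested, was called for volume by limma (0%), with 3616 genes in spleens, 391 in day 16 nodes and 774 in day 23 nodes at an unadjusted p under 0.05. Single libraries decided this. Without PD1/CYTO 40, the mouse with the smallest tumor, 7407 genes were called in spleens and 96 in day 23 nodes, and without TS/PD1/CYTO 60, 2070 in spleens. Slopes in spleens were from -0.03 ± 0.12 for CD177 to 0.21 ± 0.12 for ELANE (adjusted p = 0.234), and in day 23 nodes from 0.05 ± 0.13 for CTSG to 0.56 ± 0.21 for LCN2 (adjusted p = 0.714). LTF had 0.53 ± 0.28 in day 23 nodes. Without PD1/CYTO 40 these were 0.99 for LCN2 and 1.09 for LTF, and without TS/PD1/CYTO 58 LTF was 0.34. The sign in spleens also turned with single mice: LTF was -0.26 without PD1/CYTO 40 and 0.32 without TS/PD1/CYTO 59, and MPO -0.14 and 0.39. In day 16 nodes LTF had -0.55 ± 0.52 and CAMP -0.58 ± 0.37, and LTF had 0.47 without the 3 nodes low in CD79A. Volume ranged from 29.2 to 2198 mm3 at day 23.

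Whether spleen and node of a mouse go together beyond their arm was tested with arm means removed, over 18 mice and every reordering of mice within arms. Pearson's r was positive for all 9 genes, from 0.20 for LTF (Spearman's rho 0.32) to 0.46 for MS4A3 (rho 0.34). The exact permutation p-values, two-sided, were 0.111 for CTSG at r = 0.43 to 0.667 for CD177, and adjusted over 10948 genes they were 0.616 to 0.93. The Spearman p-values were 0.136 to 0.833. No gene of all those tested was called, with 1073 at an unadjusted p under 0.05, and the median r was -0.00. MS4A3, ELANE and CD177 varied within the PD1 arm alone among these nodes, so 3 mice with 6 orderings set their r, and their p could not pass a threshold of 0.05. Without the 2 mice farthest from the median in spleen, r was 0.68 for LCN2 (exact permutation p = 0.0311) and 0.59 for LTF (p = 0.0498), both with an adjusted p of 0.71. With arm means kept, r was -0.14 to 0.17, and negative for MPO, CD177 and LTF.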

How the data were processed

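The values are the authors' deposited log2(TPM + 1) expression per gene, made with bcl2fastq 2.20, STAR, RSEM 1.3.0 and mm10 per the submitters' processing notes; the annotation release is not given in the sources used here. TPM keeps no read depth. Samples were grouped by tissue, day and arm from the labels. Mouse numbers within an arm were taken to mark separate animals, though CYTO 12 appears at both days. The members and gene lists were chosen with earlier results of these data known, and 12 of 116 list entries were not in the matrix. Genes above 0.01 in at least 3 fitted libraries were tested with limma 3.58.1 (trend and robust) in R 4.3.3 at a Benjamini-Hochberg adjusted p of 5%, after a test on simulated data. Arm effects average the pairs of arms that differ in one agent. Named genes are the 9 members, genes of the lists and the 6 genes most like each target by Pearson's r; some genes this rule names are not reported here. Spleen, node and tumor of a mouse are paired by the shared animal; their deviations from group means had median correlations of -0.023 (spleen and node, 18 mice), 0.034 (tumor and node, 14) and 0.096 (tumor and spleen, 14). RIN was 4.5 to 9.0 and missing for 1 library. Positions are GENCODE mouse annotation on GRCm38. Alternatives are given in the closing section.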

Additional observations from a re-analysis of the deposited data

Results flagged for a closer look

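The effect of PD1 in nodes differed between day 23 and day 16 for 5 of the 9 genes in limma's test of the difference over all 12596 genes, of which 7 (0.0556%) were called. The difference, in log2(TPM + 1), was 4.30 for CAMP, 3.08 for MPO, 2.60 for ELANE, 2.40 for CTSG and 1.98 for CD177, each more positive at day 23. For CAMP this joins 1.72 at day 23 with -2.59 at day 16, and the day 16 effect draws on the TS/CYTO nodes. The genes were chosen for such differences, so these values are a description. Without the 3 day 16 nodes low in CD79A the values were 4.30 for CAMP, 3.14 for MPO, 2.87 for ELANE, 2.39 for CTSG and 1.98 for CD177, and CD177 was no longer called.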

How the results depend on the processing

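The contrasts added later (PD1 minus Isotype and PD1 by CYTO at day 23, TS/CYTO minus CYTO at day 16) and the fits without the 3 nodes low in CD79A were chosen after seeing the data. Counts of genes called changed by over 1.5 times as follows; the cause was not tested. Under quantile normalization they were 1 for CYTO in tumors, 32, 4 and 2 for PD1, CYTO and TS in day 23 nodes, 1 for PD1 by CYTO, 2 for the day difference of PD1 and 1505 for spleen volume slopes. With listed TPM rescaled they were 3 for that day difference and 1129 for spleen slopes. Without a filter they were 1 and 2 for PD1 and TS in day 23 nodes, 1 for PD1 by CYTO, 5 for day, 3, 1 and 2 for the day differences of PD1, CYTO and TS, and 260 for tumor slopes. The stricter filter, which leaves LCN2 and LTF of the 9 genes in nodes, gave 0 for PD1, CYTO, TS, PD1 minus Isotype, PD1 by CYTO and the day difference of PD1, 5863 for spleen minus node, 5536 for tumor minus node, 181 for tumor and 917 for spleen slopes. A pseudocount of 0.1 gave 3 for TS/CYTO minus CYTO, 0 for TS in day 23 nodes, 4 for PD1 by CYTO and 1 for day. RIN as a covariate gave 1, 2 and 0 for PD1, CYTO and PD1 by CYTO, 4 for the day difference of PD1 and 261 for tumor slopes. Without an arm term slopes gave 1196 in tumors and 4442 in spleens; without a batch term tumors gave 244, and RNAlater tumors alone 0. Without the 3 nodes low in CD79A, counts were 1, 2 and 4 for PD1, CYTO and TS at day 16, 1 for TS/CYTO minus CYTO, 255 for day, and 2 and 5 for the day differences of CYTO and TS.

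Leaving out 1 library gave 0 to 5, 0 and 0 to 1 calls for PD1, CYTO and TS in tumors, 0 to 1, 0 to 60 and 0 to 2779 in spleens, 0 to 1 for each at day 16, 0 to 5 for TS/CYTO minus CYTO, 0 to 87, 1 to 15 and 1 to 3 at day 23, 3 to 23 for PD1 minus Isotype and 0 to 13 for PD1 by CYTO. Volume slopes gave 0 to 807 in tumors, 0 to 7407 in spleens, 0 for day 16 nodes and 0 to 96 for day 23 nodes. It was not run for the tissue and day-difference fits. With mouse as a replicate block, which uses the pairing by animal, spleen minus node gave 11368 calls and tumor minus node 10781, against 11326 and 10923.

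Slopes near 0 changed sign: CTSG in tumors to -0.04 (RIN), -0.15 (no arm term) and -0.02 (RNAlater); in spleens CAMP to -0.00 and LTF to -0.01 (RIN), CD177 to 0.08 (quantile), 0.01 (rescaled) and 0.00 (no arm term). In day 16 nodes PRTN3, LTF and LCN2 went to 0.11, 0.47 and 0.63 without the nodes low in CD79A, MS4A3 to -0.04 (quantile), -0.07 (pseudocount) and -0.14 (no arm term), and CTSG to 0.06 (quantile). With arm means kept, spleen and node correlations went to -0.05 for MPO, -0.01 for CD177 and -0.14 for LTF. Leaving out 1 library turned the sign of slopes too. In tumors the ranges were -0.14 to 0.12 for CTSG and -0.18 to 0.10 for LTF. In spleens they were -0.14 to 0.39 for MPO, -0.12 to 0.24 for CAMP, -0.33 to 0.21 for CD177, -0.21 to 0.29 for LCN2 and -0.26 to 0.32 for LTF. At day 16 the node slopes ran from -0.32 to 0.10 for MPO, -0.38 to 0.00 for ELANE, -0.42 to 0.04 for PRTN3, -0.17 to 0.08 for CTSG, -0.10 to 0.10 for MS4A3, -0.33 to 0.30 for LCN2 and -0.81 to 0.03 for LTF. At day 23 they ran from -0.04 to 0.15 for MPO, -0.04 to 0.54 for PRTN3 and -0.05 to 0.09 for CTSG. Of the differences of the 9 genes by tissue, day and arm, 937 values under other settings moved by less than the residual SD between replicates and 78 by more, most of them with a pseudocount of 0.1.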
